A study of Homo sapiens with 10 samples.

Results

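In VCaP prostate cancer cells, 2708 of the 7712 listed ERG ChIP-seq peaks (35.1%) lay in megabases of the genome where ERG and the protein EWS had few peaks. These peaks were chosen by position. The genome (build hg19) was cut into bins of 1 Mb, and a bin was called sparse when it held fewer than 10 peaks of the VCaP ERG and VCaP EWS lists together, each peak counted by its centre. Sparse bins held 2930 ERG peaks. From these, 63 peaks on chromosome 19 and 159 peaks elsewhere that overlapped an ERG peak of RWPE1 cells by at least 1 bp were left out. Bins with 10 or more peaks are called crowded here, and the 4346 ERG peaks in them, chosen with the same exclusions, are the set beside which the sparse peaks are described.

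The samples were VCaP, a prostate cancer line, profiled with an antibody against ERG or against EWS, and RWPE1, a line from normal prostate that had been made to express stably either wild-type ERG or the point mutant ERG P436A, profiled with the same antibodies. VCaP cells were untreated, and the RWPE1 cells were kept under drug selection for the introduced gene. VCaP ERG, VCaP EWS, EWS with wild-type ERG, ERG P436A and EWS with ERG P436A had 1 list each, and wild-type ERG in RWPE1 had 2. Of the 10 samples, 7 had a list and the 3 inputs were not used here.

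ERG is a transcription factor of the ETS family, whose DNA-binding domain recognises a GGAA core. In VCaP and in many prostate tumours a fusion with the androgen-driven gene TMPRSS2 places ERG under androgen control, so that a factor normally low in prostate epithelium is produced in quantity. EWS is an RNA-binding protein of the FET family that can act as a transcriptional co-activator, and it is best known as the partner of ETS factors in the fusion proteins of Ewing sarcoma. A ChIP-seq peak is a stretch of DNA enriched with the antibody. Its width depends on how peaks were called and on how many neighbouring fragments were joined into it. Where the calling does not limit the width, isolated binding usually gives a narrow peak and contiguous enrichment a broad one.

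Each list gives chromosome, start and end of its peaks and no height, fold or p-value. A peak's strength is therefore unknown, as is the read depth. The rule used the VCaP ERG and EWS positions and the RWPE1 ERG positions, so the counts, widths, gaps and EWS shares below are descriptions without a test, and differences from the crowded megabases were not tested. Peaks of 1 list are not replicates, and VCaP had 1 list per antibody. Intervals in brackets are exact 95% binomial intervals and cover counting error only. Positions are 1-based hg19 positions. No gene or sequence was assigned to them, since the gene and sequence tables at hand are of another build.

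Few of the sparse ERG peaks were broad. The median width of the sparse peaks was 697 bp (677 to 711), against 726 bp (710 to 743) in crowded megabases. Quartiles were 521 and 883 bp in sparse megabases and 521 and 1067 bp in crowded ones, so the lower quartile was the same and the sets parted in the upper part of the distribution. The 95th percentile was 1197 bp in sparse and 4350 bp in crowded megabases. Peaks over 2000 bp numbered 11 of 2708 (0.406%, 0.203% to 0.726%) in sparse megabases, against 442 of 4346 (10.2%, 9.29% to 11.1%) in crowded ones. Over the whole VCaP ERG list, without the exclusions, 477 of 7712 peaks were that wide. A broad block listed as many neighbouring peaks, as on chromosome X below, raises the count of its bin. The contrast in broad peaks is therefore in part built in, and it was not tested. In all, the 2708 sparse peaks covered 2045723 bp, against 7340497 bp covered by the 4346 crowded peaks. The sets differ in size, and the crowded total includes very wide peaks, the widest of 184765 bp.

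Widths of the sparse peaks gathered around 2 values. Of the 2708 peaks, 473 (17.5%) were 400 to 499 bp wide and 573 (21.2%) were 500 to 599 bp wide. The count fell to 315 (11.6%) at 600 to 699 bp and was higher again at 700 to 799 bp, with 379 peaks (14.0%). Crowded megabases had the narrow group at nearly the same shares. There 733 of 4346 (16.9%) were 400 to 499 bp and 873 (20.1%) were 500 to 599 bp wide. These were followed by 462 (10.6%) at 600 to 699 bp and 407 (9.36%) at 700 to 799 bp. Widths of 700 to 999 bp were found in 976 sparse peaks (36.0%), against 1072 crowded peaks (24.7%). Peaks no wider than 501 bp, the greatest width in the VCaP EWS list, made up 558 of the sparse peaks (20.6%, 19.1% to 22.2%) and 892 of the crowded ones (20.5%, 19.3% to 21.8%). Beyond VCaP ERG, the lists had median widths of 490 to 501 bp, apart from 608 bp for wild-type ERG replicate 1. The VCaP EWS list and both lists from cells with ERG P436A held no peak wider than 501 bp. A width near 500 bp is therefore not particular to the sparse ERG peaks.

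**Figure D1:**
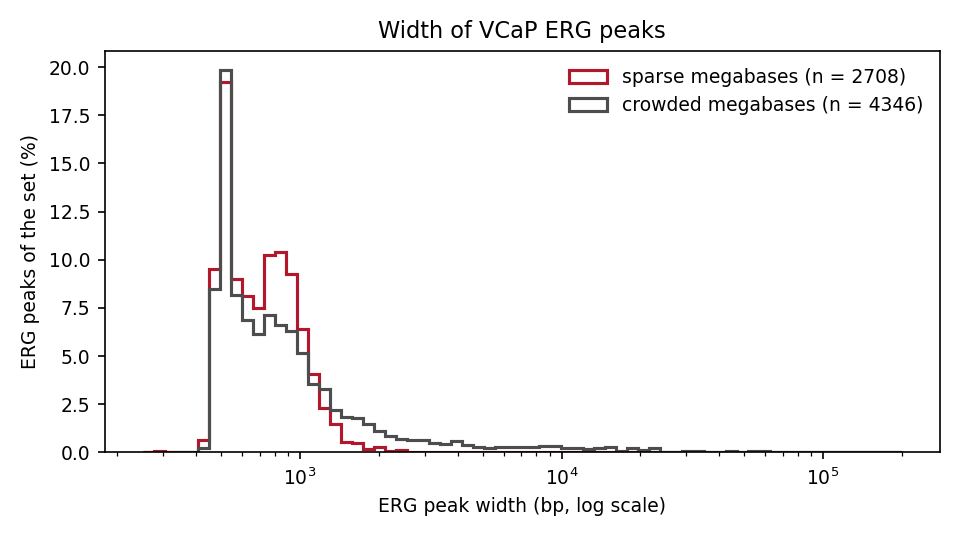
Width of VCaP ERG peaks (horizontal axis in bp, log scale) as a percentage of each set (vertical axis), for sparse megabases (red, 2708 peaks) and crowded megabases (grey, 4346 peaks). Both sets peak just above 500 bp, the red line has a second rise between 700 and 999 bp, and the tail beyond 2000 bp is almost all grey.

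The 2 widest sparse peaks stood far apart from the rest, and they were the continuation of a crowded block on chromosome X. They lay at chrX:67035602-67055972 (20371 bp) and chrX:67056706-67078203 (21498 bp). The widest peak of the whole list, chrX:66850199-67034963 (184765 bp), ended 638 bp before the first of them, and the gap between both was 733 bp. Its centre falls in the bin from 66 to 67 Mb, which held 23 ERG and 5 EWS peaks, whereas the next bin held 3 ERG and 2 EWS peaks and counted as sparse. The third ERG peak of that bin, chrX:67653178-67653736, was 559 bp wide. Without the 2 wide peaks the mean width of the sparse peaks was 741 bp (SD 258 bp, n = 2706), and with them it was 755 bp (SD 607 bp, n = 2708). The next widest were chr20:2082193-2084798 with 2606 bp, chr15:66161171-66163594 with 2424 bp and chr5:96270265-96272617 with 2353 bp.

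Width went with the order in which the authors listed the peaks, an order that is not documented as a ranking. The Spearman correlation across the 2708 sparse peaks was -0.773, and the peaks share a library and are not independent. With the list cut into 10 stretches of equal length, the sparse peaks of the first stretch had a median width of 1150 bp and those of the last 497 bp. Sparse peaks made up 187 of the 771 peaks (24.3%) in the first stretch, the lowest share of the 10, and 335 of 771 (43.5%) in the fourth, the highest. The 771 include peaks left out by the rule. The 159 left out for overlapping an RWPE1 ERG peak were listed early, with a median position of 1982, so these shares also depend on the exclusion. Beyond the chromosome X pair, the sparse peaks listed first were chr3:128879419-128880805, chr20:16709949-16711313, chr20:21602427-21604494, chr22:27067939-27069551 and chr11:2420929-2422289. Then came chr20:2450568-2452106, chr5:159349478-159351454 and chr7:128694508-128695776. These 8 were 1269 to 2068 bp wide, and each stood in a bin with 4 to 9 peaks.

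Sparse ERG peaks were found on each chromosome that the rule allows, 23 in all. Chromosome 1 held the most with 300, followed by chromosome 3 with 255 and chromosome 7 with 242. Together these held 797 peaks (29.4%). The fewest were on chromosome Y, with 10, and on chromosome 21, with 22. The 2708 peaks took up 1251 bins, of which 575 held a single sparse peak. The fullest bin held 9.

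The share of a chromosome's ERG peaks that the rule kept differed widely. On chromosome 16 it was 39 of 41 ERG peaks (95.1%), on chromosome 10 it was 98 of 105 (93.3%) and on chromosome 2 it was 124 of 133 (93.2%). None of these 3 chromosomes had a crowded bin, so all their ERG peaks lay in sparse megabases, and the 2, 7 and 9 peaks not kept were those that overlapped an RWPE1 ERG peak. The VCaP EWS list had 2, 43 and 22 peaks on them. All 10 ERG peaks of chromosome Y were kept. At the other end stood chromosome 13 with 31 of 458 (6.77%), chromosome 8 with 54 of 473 (11.4%) and chromosome 11 with 168 of 1050 (16.0%). The kept share was above 60% on 11 chromosomes and under 30% on 8. These shares follow from the rule itself, through the crowding of each chromosome and the removal of peaks found in RWPE1.

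**Figure D2:**
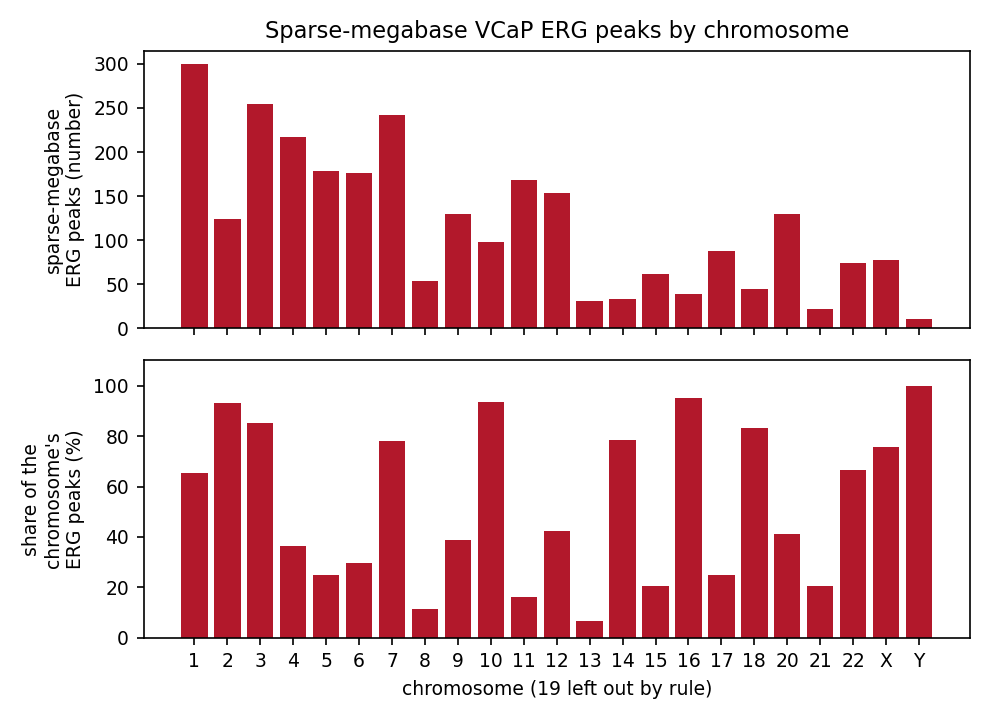
Number of sparse-megabase ERG peaks on each chromosome (upper bars) and the share that they form of all VCaP ERG peaks of the chromosome in percent (lower bars). Chromosome 1 has the most peaks with 300, while chromosomes 2, 10, 16 and Y have the largest shares and chromosome 13 has the smallest with 6.77%.

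Median width differed moderately from chromosome to chromosome. Over the 17 chromosomes with at least 50 sparse peaks, the median lay between 610.5 bp on chromosome 17 and 743.5 bp on chromosome 15. Chromosome 13 had 31 sparse peaks with a median of 579 bp and none over 1315 bp. Density within the occupied bins varied more. Chromosome 20 had 3.51 sparse peaks per occupied bin and chromosome 22 had 3.08, against 1.38 on chromosome 14 and 1.42 on chromosome 10.

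Neighbouring ERG peaks stood far apart. The gap from a sparse peak to the nearest other VCaP ERG peak, from edge to edge, had a median of 136709 bp (127505 to 148645), with quartiles of 46500 and 358713 bp. In crowded megabases the median gap was 6806 bp (6089 to 7342), with quartiles of 1387 and 33796 bp. Another ERG peak lay within 10 kb of 221 sparse peaks (8.16%, 7.16% to 9.26%), against 2435 crowded peaks (56.0%, 54.5% to 57.5%). The rule asks for a low density, so long gaps are built in and their size moves with its threshold. Between width and this gap the Spearman correlation across the 2708 sparse peaks was -0.070.

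**Figure D3:**
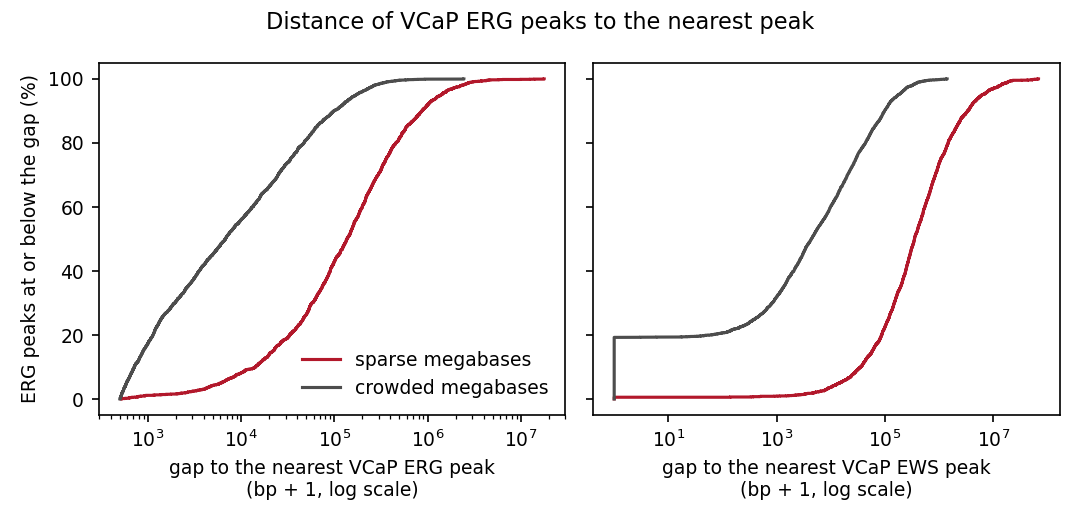
Share of ERG peaks (vertical axis, %) whose gap to the nearest VCaP ERG peak (left) or VCaP EWS peak (right) is at most the value on the horizontal axis (bp plus 1, log scale). Red is sparse and grey is crowded megabases, with medians of 136709 and 6806 bp to ERG and 351902 and 4357 bp to EWS, and the step at the left end of the EWS panel is the share of peaks overlapped by EWS, 0.554% and 19.3%.

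Some sparse peaks nevertheless came in tight pairs. With gaps of up to 10 kb joined, 214 sparse peaks formed 104 groups, of which 98 were pairs and 6 held 3 peaks. With gaps of up to 1 kb joined there were 15 pairs and no larger group. The closest pair was chr3:195162501-195163001 and chr3:195163518-195164109, 516 bp apart. The next were chr1:32966164-32966667 and chr1:32967190-32968193 at 522 bp, and chr20:16242959-16243518 and chr20:16244088-16244955 at 569 bp. No gap in the whole VCaP ERG list was below 501 bp, and the smallest gap of the 7 lists was 501 to 680 bp, so none of the lists shows peaks closer than that.

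At the far end, 3 sparse peaks had no ERG neighbour for more than 12 Mb. The peak at chr13:76056145-76056698 was 17823694 bp from the nearest other ERG peak. The gap was 13939840 bp for chr10:134906100-134906594 and 12445140 bp for chr14:93650859-93651658. All 3 were the only VCaP peak of either antibody in their megabase.

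EWS was rarely found at the sparse ERG peaks. A VCaP EWS peak overlapped 15 of 2708 (0.554%, 0.310% to 0.912%), against 837 of 4346 in crowded megabases (19.3%, 18.1% to 20.5%) and 873 of all 7712 VCaP ERG peaks (11.3%). The rule picked bins with few EWS peaks, so a low share is built in, in each width class as well. Among peaks of 502 to 1000 bp, EWS was at 9 of 1785 sparse peaks (0.504%) and at 297 of 2251 crowded peaks (13.2%). Among peaks no wider than 501 bp it was at 1 of 558 sparse peaks (0.179%) and at 103 of 892 crowded peaks (11.5%). In both sets ERG peaks with EWS were wider than those without, with medians of 912 and 696 bp in sparse and 1060 and 683 bp in crowded megabases, and a wider peak has more room for an overlap.

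Some sparse megabases held EWS peaks and others held none. Bins with a sparse ERG peak held 1417 VCaP EWS peaks, of which 15 overlapped a sparse ERG peak. Of the 2708 sparse peaks, 1144 (42.2%) lay in a bin with no EWS peak, 692 in a bin with 1 and 151 in a bin with 5 or more. In bins that had an EWS peak, EWS overlapped 15 of 1564 sparse peaks (0.959%, 0.538% to 1.58%). Of the 1593 sparse bins with any VCaP peak, 649 had ERG and no EWS, 652 had both and 292 had EWS and no ERG.

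EWS was also distant from most sparse ERG peaks. The median gap from a sparse ERG peak to the nearest VCaP EWS peak was 351902 bp (327997 to 379983), against 4357 bp (3859 to 4954) for crowded peaks. Both medians take all peaks of the set, with an overlap counted as 0 bp. The contrast therefore in part repeats that of the overlap shares, 0.554% and 19.3%. Within 1 kb, but without overlap, an EWS peak lay beside 9 further sparse peaks. Within 100 kb an EWS peak was found for 609 sparse peaks (22.5%, 20.9% to 24.1%), and an ERG peak for 1162 (42.9%, 41.0% to 44.8%). For crowded peaks both shares were about equal, at 90.2% for EWS and 90.1% for ERG. The VCaP EWS list is longer than the ERG list, with 9500 against 7712 peaks, but only 2090 EWS peaks lay in sparse bins.

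The number of peaks in a megabase, which the rule itself used, sets these gaps in part. With 1 peak in the bin, the median gap was 931627 bp to ERG and 2066113 bp to EWS. With 5 peaks these were 83359 and 293461 bp, and with 9 peaks 63917 and 101468 bp, and the medians between did not fall at each step. The gap to EWS was the longer one at each count from 1 to 9. The gaps start from ERG peaks, so bins rich in ERG weigh more, and at a given count these have fewer EWS peaks. A longer gap to EWS is therefore in part built in, and the difference was not tested. EWS overlapped 0 to 4 sparse ERG peaks at each count. At the edge of the rule, bins with 9 peaks held 224 sparse ERG peaks with a median width of 724 bp, 2 of them with EWS, and bins with 10 peaks held 216 ERG peaks with a median width of 723.5 bp, 3 of them with EWS.

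**Figure D4:**
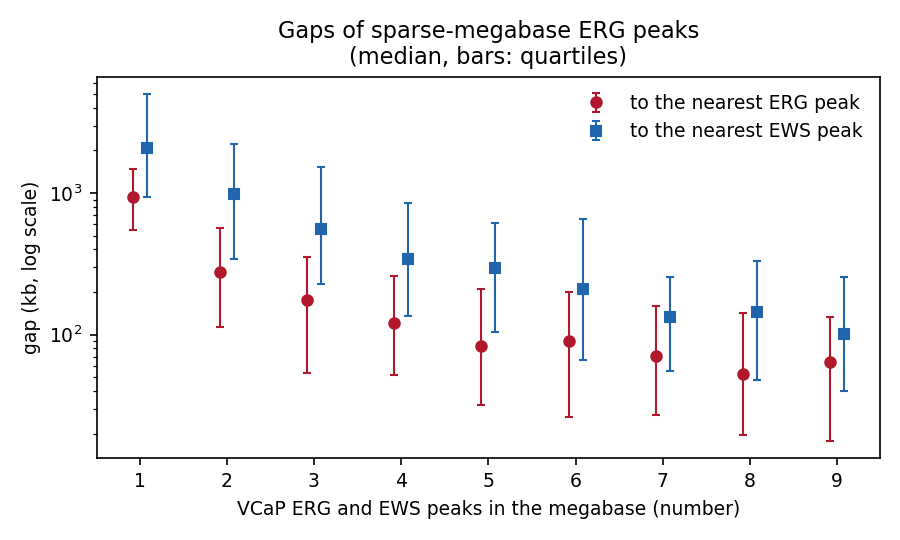
Gap from sparse-megabase ERG peaks to the nearest VCaP ERG peak (red circles) and VCaP EWS peak (blue squares) in kb on a log scale, by the number of ERG and EWS peaks in the megabase. Points are medians and bars run between the quartiles. Both medians are lower at 9 peaks than at 1, and the EWS median is above the ERG median at each count, which starting from ERG peaks favours.

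The 15 sparse ERG peaks with EWS were spread over 8 chromosomes. On chromosome 5 they were chr5:107176616-107177230, chr5:159349478-159351454, chr5:174081713-174082206 and chr5:177002580-177003797. Chromosome 1 had 3, at chr1:17087879-17088404, chr1:208136413-208137328 and chr1:234913722-234914633. On chromosome X they were chrX:15316032-15316944 and the wide peak chrX:67056706-67078203. Chromosome Y had 2 of its 10 sparse peaks among them, at chrY:28816404-28817245 and chrY:59023781-59024475. The others were chr3:156877115-156878246, chr4:89204539-89205398, chr7:66118812-66120172 and chr20:29611543-29612075. Without chromosome Y, EWS overlapped 13 of 2698 sparse peaks (0.482%). Whether any of the 15 regions lie in repeated sequence was not tested.

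Each of these 15 was overlapped by 1 EWS peak, and for 9 of them it was the only EWS peak of the megabase. The distance between the centres of the ERG and the EWS peak had a median of 206 bp and was up to 250 bp at 8 of the 15. It was smallest at chrX:15316032-15316944, with 53 bp, and at chr5:159349478-159351454, with 81 bp. It was largest, 8997 bp, inside the wide chromosome X peak. By list order, 8 of the 15 stood before the middle of the list. The median position of all 2708 sparse peaks, 3796 of 7712, was also close to the middle. None of the 15 carried an EWS peak of RWPE1 cells.

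The rule did not use the EWS lists of RWPE1, but by removing peaks found in RWPE1 ERG lists it also removed 7 of the 13 sparse ERG peaks with an RWPE1 EWS peak. With those peaks kept, an EWS peak of either list overlapped 13 of 2867 sparse peaks (0.453%), against 6 of 2708 (0.222%) without them. Among the 2708, an EWS peak of RWPE1 with wild-type ERG overlapped 5 of 2708 (0.185%, 0.0600% to 0.430%), against 17 of 4346 in crowded VCaP megabases (0.391%, 0.228% to 0.626%) and 0.402% of all VCaP ERG peaks, a share taken without the exclusions. With ERG P436A it was 1 of 2708 (0.0369%, 0.000935% to 0.206%), against 9 of 4346 (0.207%, 0.0947% to 0.393%) and 0.156% of all. An EWS peak of either list overlapped 6 of 2708 sparse peaks (0.222%, 0.0814% to 0.482%) and 25 of 4346 crowded peaks (0.575%, 0.373% to 0.848%). The shares of the single lists rest on 5 and 1 sparse peaks, and differences from crowded megabases were not tested. With wild-type ERG the regions were chr1:184899002-184899610, chr5:58883229-58884281, chr5:68788004-68788960, chr11:13292370-13293181 and chr17:44185502-44186621, and with ERG P436A the region was chr20:39382743-39383426.

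Being left out by the rule, sparse ERG peaks also found in RWPE1 give a view of what the exclusion removed. Of these 159 peaks, 96 overlapped a peak of wild-type ERG replicate 1, 35 one of replicate 2 and 57 one of ERG P436A. The 2708 retained peaks had a median width of 697 bp (677 to 711) and a median list position of 3796, whereas the 159 removed peaks had a median width of 902 bp (843 to 959) and a median position of 1982. The gap to the nearest VCaP ERG peak was 136709 bp (127505 to 148645) for the retained and 102058 bp (83119 to 137950) for the removed peaks. VCaP EWS overlapped 15 of the retained peaks (0.554%, 0.310% to 0.912%) and 1 of the removed ones (0.629%, 0.0159% to 3.45%). An RWPE1 EWS peak of either list overlapped 6 of the retained peaks (0.222%, 0.0814% to 0.482%) and 7 of the removed ones (4.40%, 1.79% to 8.86%). The 159 were chosen by overlap with an RWPE1 ERG list, and a wider peak has more room for an overlap. The EWS lists compared here come from RWPE1 as well. Differences in width and in RWPE1 EWS share are therefore in part built in, and they were not tested. Without overlapping, an RWPE1 ERG peak came within 1 kb of 33 retained peaks (1.22%, 0.840% to 1.71%), against 50 of 4346 in crowded megabases (1.15%, 0.855% to 1.51%).

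Some sparse megabases bordered crowded ones. A crowded bin adjoined the bin of 493 sparse peaks (18.2%). Their median gap was 80206 bp to ERG and 137891 bp to EWS, against 157620 and 451299 bp for the 2215 sparse peaks with no crowded bin beside them. Median widths were 707 and 694 bp. EWS overlapped 4 of the 493 (0.811%, 0.221% to 2.06%) and 11 of the 2215 (0.497%, 0.248% to 0.887%).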

How the data were processed

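ERG and EWS binding was measured by ChIP-seq in VCaP and RWPE1 cells. Each deposited list holds chromosome, start and end, so the deposited unit is a position in base pairs, with no score. The submitters' processing notes name Bowtie2, with 0.12.8 as its version, and the build hg19. How peaks were called, and against which control, is not given in the sources used here, no list is labelled as pooled, and depth is unknown. Starts were read as 0-based. Groups came from the labels.

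Peaks were assigned to 1 Mb bins by centre. An overlap of 1 bp counted as shared, and gaps run from edge to edge. Shares carry Clopper-Pearson 95% intervals and medians exact binomial order-statistic intervals. No test was run, since the rule used these lists, peaks are not replicates and no group beside wild-type ERG in RWPE1 had a second list. Overlap and gap functions were tested on simulated data. The peaks and measures were chosen with earlier results of these data known. Regions named were the first 10 listed, the 5 widest, those with a VCaP or RWPE1 EWS peak, the 3 closest pairs and the 3 most isolated. The chromosome X neighbours of the widest peaks were named after their values were seen. Planned gene and motif work was not run, as no hg19 genome was used. Alternatives changed the bin threshold and origin, the exclusions and the overlap rule. Computations used Python 3.11.15, NumPy 2.4.6, SciPy 1.17.1 and pandas 2.3.3.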

Additional observations from a re-analysis of the deposited data

How the results depend on the processing

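With 6 results under up to 13 alternatives, 55 values stayed within 1.5 times (counts) or within the interval of the reported value, and 11 did not. With fewer than 5 peaks per megabase as the rule, 1445 ERG peaks remained, with a median width of 671 bp and median gaps of 260294 bp to ERG and 782745 bp to EWS. With fewer than 20, the rule gave 3925 ERG peaks, against 2708, which still counted as within 1.5 times. The gaps were then 90612 and 187500 bp and EWS overlapped 0.994%. With bins next to a crowded bin left out, an alternative added after seeing the data, the gaps were 157620 and 451299 bp. A reciprocal overlap of 0.5 left a VCaP EWS peak at 0.185% and an RWPE1 EWS peak at 0.0369%, or 5 and 1 peaks. The thresholds and the stricter overlap move these values by their construction. Leaving either wild-type ERG replicate out of the exclusion gave 2732 or 2784 peaks. No paired analysis was possible, since VCaP had 1 list per antibody and only wild-type ERG in RWPE1 had a second list. With single VCaP lists and no depth, neither the spread between experiments nor missed weak peaks could be measured.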
